A study of Mus musculus with 12 samples.

Results

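Mitochondrial fatty acid β-oxidation was described here through 32 mouse genes, 32 of the 55385 features of the liver expression table. These genes were chosen by name for their place in the pathway, with earlier results of these data known. They cover the carnitine shuttle and carnitine transport (5 genes), the acyl-CoA synthetases (5), the acyl-CoA dehydrogenases (9), the hydration, second oxidation and thiolysis steps (5), the auxiliary enzymes for unsaturated acyl-CoA (3), the electron transfer flavoprotein, ETF (3), and thioesterases (2). All 32 were detected in every mouse, and all 32 passed the filter of a mean of at least 1 TPM (length-normalised transcripts, scaled to the same total in every liver). Livers of 12 male C57BL/6 mice, 7 weeks old, were profiled by RNA-Seq on day 7 after injection of 500000000 plaque-forming units of adenovirus. The Ad-Ctrl group received the control viruses Lac and pAdV5. The Ad-shmGULL group received a short hairpin against the mouse long noncoding RNA mGULL together with pAdV5, and the Ad-shmGULL+hGULL group received the same hairpin with the human lncRNA hGULL. Each group held 4 mice. All 12 mice carried adenovirus, so that no comparison had an uninfected liver, and the sources give more than one injection route and do not name which mGULL hairpin was used. For these groups the comparisons asked what loss of mGULL did to the pathway and whether the human transcript restored it.

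In hepatocytes, β-oxidation shortens fatty acids by repeated rounds of dehydrogenation, hydration, a second dehydrogenation and thiolysis in the mitochondrial matrix, and the liver relies on it during fasting to supply energy and to make ketone bodies. Long-chain acyl groups enter as carnitine esters, and carnitine palmitoyltransferase 1a (Cpt1a) on the outer membrane is the regulated entry step, which malonyl-CoA inhibits. The nuclear receptor PPARα (Ppara) with its coactivator PGC-1α (Ppargc1a) is a well-known activator of these genes, and the cAMP response element (CRE) binding protein CREB works with the coactivator Crtc2 in the fasting liver.

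After knockdown, Acot2, a matrix thioesterase, rose to 2.44 times the control level, Crat, the carnitine acetyltransferase, to 1.58 times, and Hadha, the α subunit of the mitochondrial trifunctional protein, to 1.33 times. These folds are on the TPM + 1 scale. Cpt1a lay lower in all 4 knockdown mice than in any control or rescue mouse, but passed neither threshold. In the rescue livers Acot2 was at 2.1 times, Crat at 1.51 times and Hadha at 1.36 times the control level, and 0 of the 32 genes passed either threshold between the rescue and knockdown groups. A gene was counted at the threshold of the study (a change of more than 0.5 on the log2 scale and an unadjusted P below 0.05) or at a Benjamini-Hochberg adjusted p under 0.05 over 16378 tested genes, both from limma on log2(TPM + 1). "Rose" and "fell" are used only for genes past at least one of them. In whole liver, a change in the number of cells that express a gene and a change in its RNA per cell cannot be told apart.

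The 32 genes together held 5750 ± 240 TPM (SD, n = 4) in the control livers, 6370 ± 253 in the knockdown livers and 6430 ± 190 in the rescue livers, or 0.575%, 0.637% and 0.643% of all TPM. The median member lay at the 95.1th percentile of the tested genes by mean TPM, and Acaa2 ranked 99 among all features. The median coefficient of variation over the members was 9% in control, 12.6% in knockdown and 5.64% in rescue mice, below the 15.3%, 18.9% and 10.2% of all tested genes. That comparison is not matched for abundance, since the tested genes reach down to a mean of 1 TPM.

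**Figure D1:**
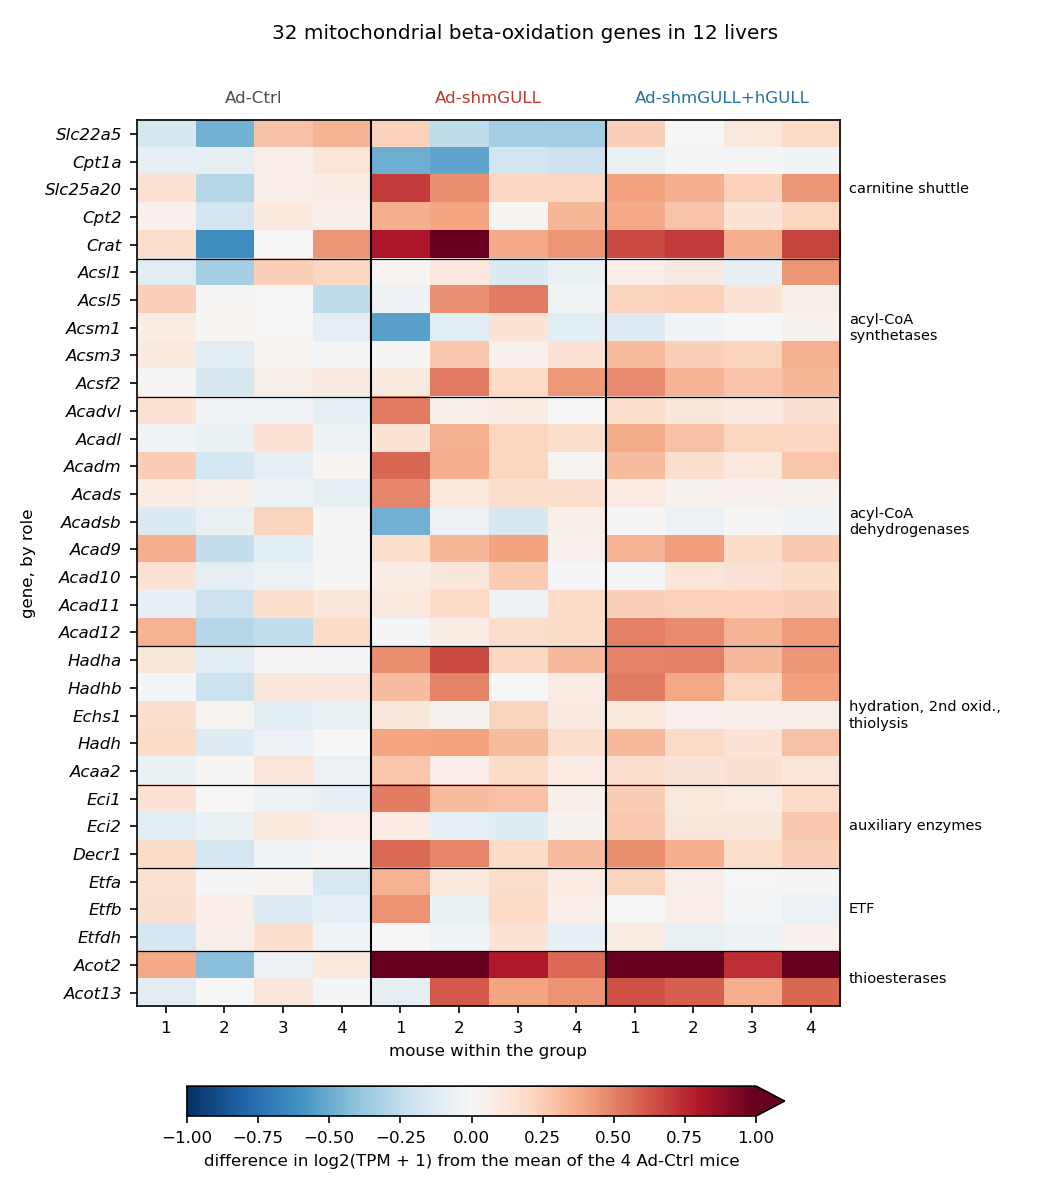
Each cell gives the difference in log2(TPM + 1) between 1 liver and the mean of the 4 Ad-Ctrl livers for the 32 genes (rows, grouped by role) and 12 mice (columns 1 to 4 of each group), with red for higher and blue for lower and colours capped at 1. Cpt1a is blue in all 4 Ad-shmGULL mice, whereas Acot2 is red in all 8 mice that received the hairpin.

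Several features of the livers moved with the groups or with single mice. Between 15525 and 16929 features exceeded 1 TPM in a liver, the lowest in Ad-Ctrl mouse 2, which was also the lowest of its group for 19 of the 32 genes and the highest for 0. Hepatocyte markers were abundant throughout, with summed levels of 78700 to 115000 TPM in control, 81800 to 97300 in knockdown and 70000 to 85000 in rescue mice. The 8 markers had a median log2 difference of -0.215 in knockdown and -0.263 in rescue against control mice. In each comparison 6 were below 0 and 2 above, while the medians of all tested genes were 0.087 and 0.173. Of the 8, Apoa1 and Tat were lower at the threshold of the study in both hairpin groups. The 5 endothelial markers had a median log2 difference of 0.388 in knockdown and 0.345 in rescue against control mice, and their summed level was 97 to 161 TPM in control, 149 to 200 in knockdown and 152 to 175 in rescue mice. Stab2, a scavenger receptor of sinusoidal endothelium, was higher after knockdown (0.54, adjusted p = 0.0476 in limma). The 5 stellate cell markers had a median of 0.351 after knockdown, with sums of 84 to 174 TPM in control, 130 to 170 in knockdown and 120 to 147 in rescue mice. The 3 tested neutrophil markers had a median of -0.784 for rescue against knockdown, with S100a8 and S100a9 lower at the threshold of the study, and the 4 listed summed to 100 to 234 TPM in control, 118 to 272 in knockdown and 88.4 to 139 in rescue mice. The 6 Kupffer cell and macrophage markers had a median of 0.105 in knockdown and 0.074 in rescue against control, with 3 above 0 in each. Of them, only Marco was lower at the threshold of the study, in both hairpin groups (-1.04 and -0.93 against control). The 6 markers summed to 214 to 317 TPM in control, 200 to 343 in knockdown and 242 to 313 in rescue mice. Adipocyte and muscle markers, which would carry β-oxidation genes of their own, summed to at most 8.19 and 4 TPM in any liver, and the adipocyte hormone gene Lep was listed at 0 in all 12 mice. The part of these differences in the results was not tested.

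The gene positions and promoter sequences are given for the members on which the results turn. In the GRCm38.p6 build, Cpt1a lies at chr19:3322326-3385735, Acadm at chr3:153922353-153944643, Crat at chr2:30400476-30416017, Hadha at chr5:30119423-30154980, Hadhb at chr5:30155253-30184593, Acot2 at chr12:83987861-83993877 and Acot13 at chr13:24817955-24831489, all protein-coding. RefSeq promoter windows for this build, from 250 bases before to 50 after the transcription start, were found for 27 of the 32 genes (28 windows). The Cpt1a window lies wholly inside the gene span given above. Its transcription start is therefore an internal one, downstream of the first base of the gene. The windows of the entry enzyme Cpt1a (chr19:3323051-3323350, plus strand), of the medium-chain dehydrogenase Acadm (chr3:153944594-153944893, minus strand), of Acot2 (chr12:83987611-83987910, plus strand) and of Hadha (chr5:30154931-30155230, minus strand) are printed 5′ to 3′. Capitals mark AGGTCA, the half-site of PPAR and RXR receptors, and TGACG, the half-site of the CRE, each on either strand.
Cpt1a: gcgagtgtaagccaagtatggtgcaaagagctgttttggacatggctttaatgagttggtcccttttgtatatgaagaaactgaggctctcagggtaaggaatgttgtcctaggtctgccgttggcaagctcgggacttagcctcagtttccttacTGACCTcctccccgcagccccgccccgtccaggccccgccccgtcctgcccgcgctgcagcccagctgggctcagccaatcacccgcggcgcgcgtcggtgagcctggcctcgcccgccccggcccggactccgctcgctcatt
Acadm: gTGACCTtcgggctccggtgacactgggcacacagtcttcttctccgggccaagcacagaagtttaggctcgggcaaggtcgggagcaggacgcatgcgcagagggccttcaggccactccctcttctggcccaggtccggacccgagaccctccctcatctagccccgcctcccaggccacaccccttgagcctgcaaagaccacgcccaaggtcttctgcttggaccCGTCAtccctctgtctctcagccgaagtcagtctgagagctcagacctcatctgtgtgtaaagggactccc
Acot2: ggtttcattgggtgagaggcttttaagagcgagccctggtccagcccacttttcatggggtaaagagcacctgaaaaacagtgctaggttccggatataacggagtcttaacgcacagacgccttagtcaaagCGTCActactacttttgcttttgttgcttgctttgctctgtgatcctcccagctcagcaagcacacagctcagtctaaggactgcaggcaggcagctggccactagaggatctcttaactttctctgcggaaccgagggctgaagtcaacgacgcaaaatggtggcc
Hadha: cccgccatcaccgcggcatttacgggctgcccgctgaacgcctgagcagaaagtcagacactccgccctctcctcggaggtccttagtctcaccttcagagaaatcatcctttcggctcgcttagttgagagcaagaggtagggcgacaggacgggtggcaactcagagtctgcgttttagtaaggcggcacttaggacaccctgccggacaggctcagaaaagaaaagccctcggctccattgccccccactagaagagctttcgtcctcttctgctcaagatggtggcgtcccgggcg

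AGGTCA occurred 94 bases before the internal Cpt1a start and 249 bases before the Acadm start, both on the strand opposite the printed one. It was found in 5 of the 28 member windows (17.9%; Acadm, Acadvl, Acsm1, Cpt1a and Echs1), against 16.3% of all 32817 windows of this length. TGACG occurred 21 bases before the Acadm start and 117 before the Acot2 start, both again on the strand opposite the printed one. It was found in 10 of 28 windows (35.7%), against 20.8% of all windows. The direct repeat AGGTCANAGGTCA, the estrogen-related receptor element TCAAGGTCA and the full CRE TGACGTCA occurred in 0 of 28 member windows and in 0.0396%, 0.424% and 1.79% of all windows, with both strands searched and overlapping matches kept (each full CRE holds the half-site). The member windows had a median GC content of 61.0%, against 52.7% for all windows. Hadha and Hadhb are transcribed away from each other from starts 273 bases apart, and their windows share 228 bases, so that the Hadha sequence is largely the Hadhb promoter read from the other strand. These matches describe the letters of the windows and nothing about binding in these livers.

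The carnitine shuttle held Cpt1a, lower in the knockdown mice, and Crat, which rose. Cpt1a measured 283, 283, 316 and 329 TPM in control mice 1 to 4, 215, 209, 266 and 262 in knockdown mice, and 287, 299, 298 and 296 in rescue mice. Every knockdown mouse lay below every control and every rescue mouse, and the rescue mice lay within the range of the controls. The log2 fold change was -0.35 for knockdown against control (95% CI -0.55 to -0.15; unadjusted P = 0.0024, adjusted p = 0.0582 in limma) and 0.32 for rescue against knockdown (0.12 to 0.52; unadjusted P = 0.00489, adjusted p = 0.358), while rescue against control was -0.04 (-0.24 to 0.17). The last 2 differences moved with the scaling: under median of ratios, rescue against knockdown was 0.22 (unadjusted P = 0.0806 in limma) and rescue against control -0.24 (unadjusted P = 0.0615). The exact permutation test gave p = 0.0286 for both of the first 2 comparisons, the smallest value that 4 mice against 4 allow. The adjusted p for knockdown against control was 0.0474 after scaling by the median of ratios, 0.0293 after quantile normalization and 0.0398 without the 20 highest genes, but 0.0822 with no trend, 0.0998 with no filter and 0.188 with the 2 groups alone, and with the deposited TPM it ranged from 0.0297 to 0.146 as each mouse was left out.

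Crat, which transfers acetyl groups between CoA and carnitine, measured 38.8, 21.9, 34.1 and 46.7 TPM in control, 60.7, 70.2, 44.6 and 46.6 in knockdown, and 54.6, 56.1, 44.1 and 55.0 in rescue mice. The knockdown and rescue groups each overlapped the controls, through control mouse 4, and the low value of control mouse 2 set much of the control spread. Crat rose past the threshold of the study in knockdown (log2 fold change 0.66 ± 0.20 SE, 95% CI 0.22 to 1.1, unadjusted P = 0.0067, adjusted p = 0.0926) and in rescue against control (0.60, 95% CI 0.16 to 1.04, adjusted p = 0.108), with exact permutation p = 0.0857 and 0.0571. Without control mouse 2 the log2 fold changes were 0.46 and 0.39, under the threshold. Slc25a20, the carrier that exchanges acylcarnitine for carnitine, averaged 85.0 ± 11.0 TPM (SD, n = 4) in control, 113 ± 19.4 in knockdown and 109 ± 6.79 in rescue mice. Cpt2, the transferase of the inner membrane, averaged 191 ± 16.3, 233 ± 26.1 and 229 ± 16.7 TPM. Neither gene passed a threshold. Slc22a5, the plasma membrane carnitine transporter, averaged 42.3 ± 11.0, 36.8 ± 7.84 and 45.4 ± 3.48 TPM, so that its group differences were smaller than the spread between control mice. Of its 50-base stretches, 26.1% also occur in other genes, most often Slc22a21 and Slc22a4, so that its level is uncertain.

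**Figure D2:**
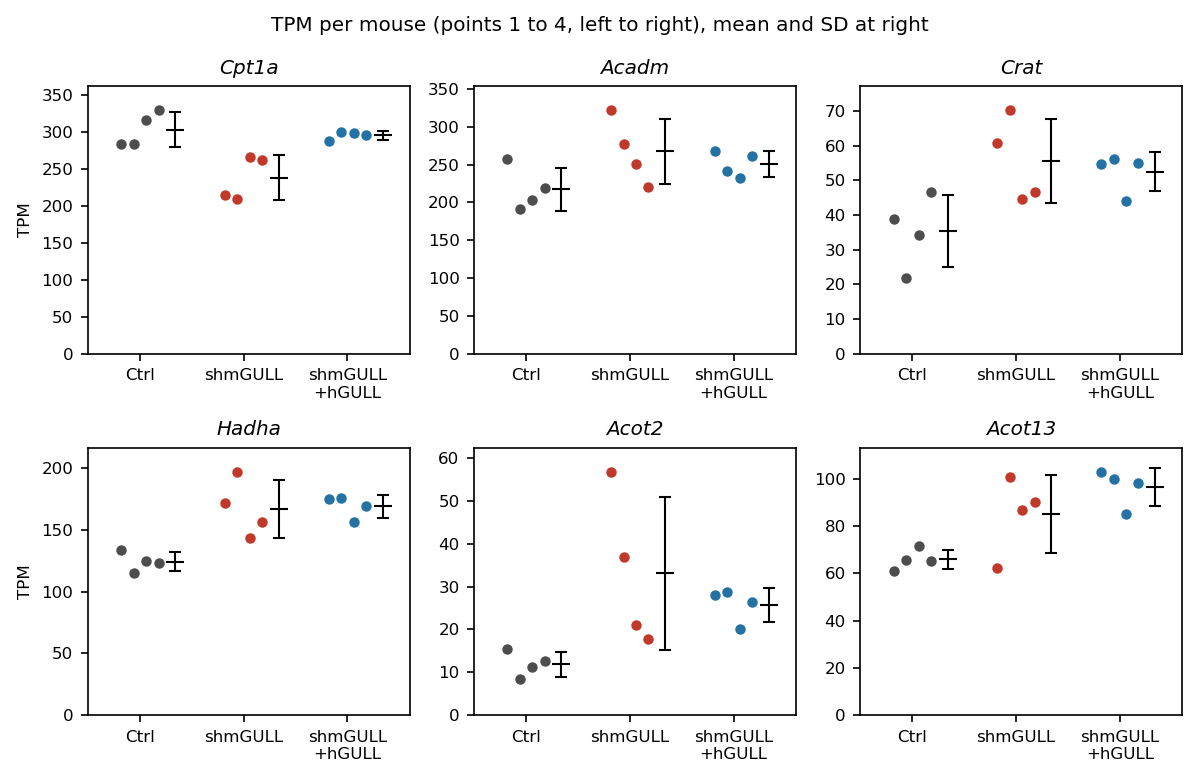
TPM (vertical axis, from 0) of 6 genes in each mouse, with points 1 to 4 of each group from left to right and the mean ± SD at their right. The 4 knockdown mice lie below the other 8 for Cpt1a, the 4 control mice lie below the other 8 for Hadha and Acot2, and the groups overlap for Acadm.

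Among the acyl-CoA synthetases, which activate fatty acids for oxidation, 0 of 5 genes passed either threshold in any comparison. Acsm1, a medium-chain synthetase and the most abundant of them, measured 521, 499, 492 and 464 TPM in control, 339, 459, 542 and 459 in knockdown, and 452, 483, 493 and 506 in rescue mice. Knockdown mice 1 and 3 held the lowest and the highest value of all 12, and the groups overlapped. Its log2 fold change was -0.15 for knockdown against control (95% CI -0.41 to 0.10). Acsf2 averaged 247 ± 18.8, 308 ± 42.1 and 316 ± 18.1 TPM, with every knockdown and every rescue mouse above every control mouse and adjusted p of 0.103 and 0.0706. Of the 50-base stretches of its canonical transcript, 35.8% also occur in Gm5540, so that its level is uncertain. Acsl1, the main long-chain synthetase of liver, averaged 418 ± 77.3, 408 ± 29.7 and 456 ± 73.4 TPM. Acsl5, another long-chain synthetase, averaged 173 ± 23.6, 204 ± 43.0 and 192 ± 10.3 TPM, and Acsm3 73.9 ± 4.57, 80.3 ± 6.67 and 89.9 ± 4.14 TPM.

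The acyl-CoA dehydrogenases catalyse the first oxidation of each round, with different enzymes for very-long, long, medium and short chains, and 0 of 9 passed either threshold. Acadm, the medium-chain enzyme, measured 257, 191, 203 and 219 TPM in control, 322, 278, 251 and 220 in knockdown, and 268, 242, 232 and 262 in rescue mice. Its groups overlapped in all 3 comparisons. The log2 fold change was 0.29 for knockdown against control (95% CI 0.03 to 0.56; unadjusted P = 0.0316, adjusted p = 0.196), opposite in sign to that of Cpt1a, and -0.08 for rescue against knockdown (adjusted p = 0.817).

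The study also measured Cpt1a and Acadm by qRT-PCR, whose values are not analysed here. Each of its primer pairs matched the transcripts of its own gene only in the GENCODE VM39 transcripts. On the canonical transcripts the Cpt1a pair spans 133 bases within exon 3 of 19, and the Acadm pair spans 75 bases from exon 2 to exon 3 of 12. The pairs are shown 5′ to 3′ because they mark the parts of the transcripts that the other assay read.
Cpt1a forward: tggcatcatcactggtgtgtt
Cpt1a reverse: gtctagggtccgattgatctttg
Acadm forward: aacacaacactcgaaagcgg
Acadm reverse: ttctgctgttccgtcaactca

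Acadvl, the very-long-chain enzyme and the most abundant dehydrogenase, measured 464, 412, 412 and 395 TPM in control, 603, 438, 442 and 418 in knockdown, and 474, 454, 446 and 467 in rescue mice. Knockdown mouse 1 stood above all others, and the log2 fold change of 0.16 (95% CI -0.07 to 0.40) was 0.04 without it. Acadl, the long-chain enzyme, averaged 232 ± 16.2, 270 ± 18.5 and 280 ± 15.2 TPM, and Acads, the short-chain enzyme, averaged 207 ± 12.3, 244 ± 30.6 and 214 ± 3.18 TPM. Every Acads value in knockdown lay above every value in the other groups, with log2 fold changes of 0.23 (adjusted p = 0.149) against control and -0.18 (adjusted p = 0.466) for rescue against knockdown. Acadsb, which acts on short branched chains, was the dehydrogenase with a negative difference after knockdown, -0.16 (95% CI -0.40 to 0.08). The remaining dehydrogenases Acad9, Acad10, Acad11 and Acad12 had log2 differences of 0.23, 0.10, 0.10 and 0.10 after knockdown, and 0.30, 0.11, 0.24 and 0.44 in rescue against control. Acad10 and Acad12 lie side by side on chromosome 5, and 21.7% and 20.7% of the 50-base stretches of their canonical transcripts also occur in each other or in another gene, so that their separate levels are uncertain.

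Of the 5 genes for hydration, second oxidation and thiolysis, Hadha rose in both hairpin groups. Hadha measured 134, 115, 125 and 123 TPM in control, 172, 197, 143 and 156 in knockdown, and 175, 176, 156 and 169 in rescue mice. All 8 mice that received the hairpin lay above all 4 controls, and the knockdown and rescue groups overlapped. The log2 fold change was 0.42 ± 0.10 SE in knockdown (95% CI 0.21 to 0.62, adjusted p = 0.038) and 0.44 in rescue against control (95% CI 0.24 to 0.65, adjusted p = 0.0426), with exact permutation p = 0.0286 for each, and 0.03 for rescue against knockdown (95% CI -0.18 to 0.23). The adjusted p in knockdown reached 0.134 when the model held the 2 groups alone and 0.112 with 1 mouse left out, and in rescue it reached 0.201 under median-of-ratios scaling.

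Hadhb encodes the β subunit of the same complex and is transcribed from the other side of the promoter printed for Hadha. It measured 44.2 ± 4.77 TPM in control, 52.0 ± 8.34 in knockdown and 57.8 ± 4.97 in rescue mice, with log2 fold changes of 0.22 (adjusted p = 0.315) and 0.38 (adjusted p = 0.0875) against control. Its level is uncertain, since 62.9% of the 50-base stretches of its canonical transcript also occur in other genes, most often a pseudogene, Hadhb-ps, and Gm9108. Hadh, the short-chain hydroxyacyl-CoA dehydrogenase, averaged 143 ± 14.0, 179 ± 13.3 and 169 ± 10.4 TPM, and its log2 fold change after knockdown was 0.32 (adjusted p = 0.0624). Acaa2, the matrix thiolase and the most abundant member, measured 992, 1050, 1130 and 998 TPM in control, 1260, 1090, 1180 and 1100 in knockdown, and 1170, 1140, 1160 and 1130 in rescue mice. Its knockdown mice overlapped the controls, and its log2 fold change was 0.15 (95% CI -0.03 to 0.33). Echs1, the short-chain enoyl-CoA hydratase, averaged 71.0 ± 6.06, 77.1 ± 4.33 and 74.1 ± 1.39 TPM.

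The auxiliary enzymes, which bring the double bonds of unsaturated fatty acids into a form that the main pathway accepts, passed neither threshold. Decr1, the 2,4-dienoyl-CoA reductase, measured 147, 115, 127 and 130 TPM in control, 192, 182, 147 and 160 in knockdown, and 179, 167, 146 and 153 in rescue mice. The lowest knockdown and the highest control mouse were both at 147 TPM, with the knockdown mouse above by less than the digits shown, and the log2 fold change was 0.39 (95% CI 0.16 to 0.61, adjusted p = 0.0621). The isomerase gene Eci1 averaged 135 ± 9.38, 167 ± 21.7 and 150 ± 8 TPM. Eci2, a second isomerase, averaged 115 ± 8.47, 113 ± 7.99 and 130 ± 7.73 TPM, and its rescue mice lay above all others (log2 fold change against knockdown 0.21, adjusted p = 0.408).

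ETF collects the electrons of the acyl-CoA dehydrogenases and passes them to the respiratory chain through its oxidoreductase, Etfdh. Etfa measured 346, 308, 317 and 281 TPM in control, 398, 334, 353 and 330 in knockdown, and 365, 323, 312 and 314 in rescue mice, and the groups overlapped. Its log2 fold change after knockdown was 0.18 (95% CI -0.02 to 0.37), against 0.16 for Etfb and 0.00 for Etfdh (95% CI -0.18 to 0.18). In the canonical transcript of Etfb, 67.3% of the 50-base stretches also occur in Etfbl, which makes its level uncertain. For rescue against control the 3 values were 0.07, 0.00 and 0.00.

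The thioesterases release free fatty acid from acyl-CoA, and both rose in at least one hairpin group. Acot2 measured 15.4, 8.44, 11.1 and 12.5 TPM in control, 56.8, 36.9, 21.0 and 17.7 in knockdown, and 28, 28.7, 20 and 26.5 in rescue mice. All 8 hairpin mice lay above all 4 controls, and the knockdown values ranged most widely, from 17.7 to 56.8. The log2 fold change was 1.29 ± 0.30 SE in knockdown (95% CI 0.64 to 1.94, adjusted p = 0.0399) and 1.07 in rescue against control (95% CI 0.42 to 1.72, unadjusted P = 0.00358, adjusted p = 0.0706), and -0.21 for rescue against knockdown (95% CI -0.87 to 0.44). Without knockdown mouse 1 the change after knockdown was 0.98, and the adjusted p reached 0.116 among the fits that left out 1 mouse. Acot2 shares 25.3% of its 50-base stretches with other genes, most often its paralogs Acot1 and Acot4, so that reads could be split between these genes. The cytosolic Acot1 itself measured 11.1, 12.6, 20.3 and 16.2 TPM in control, 68.3, 24.2, 22.8 and 19.5 in knockdown, and 15.6, 18.1, 18 and 24 in rescue mice, with its highest value again in knockdown mouse 1.

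Acot13 measured 61.2, 65.8, 71.4 and 65.2 TPM in control, 62.1, 101, 87.0 and 90.2 in knockdown, and 103, 100, 85.0 and 98.3 in rescue mice. Knockdown mouse 1 lay among the controls, whereas the other 3 knockdown mice and all 4 rescue mice lay above them. Acot13 rose in rescue against control (log2 fold change 0.54, 95% CI 0.27 to 0.82, adjusted p = 0.0488), and the change after knockdown was 0.34 (95% CI 0.07 to 0.62, adjusted p = 0.151). The adjusted p in rescue reached 0.198 under median-of-ratios scaling and 0.160 with 1 mouse left out.

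**Figure D3:**
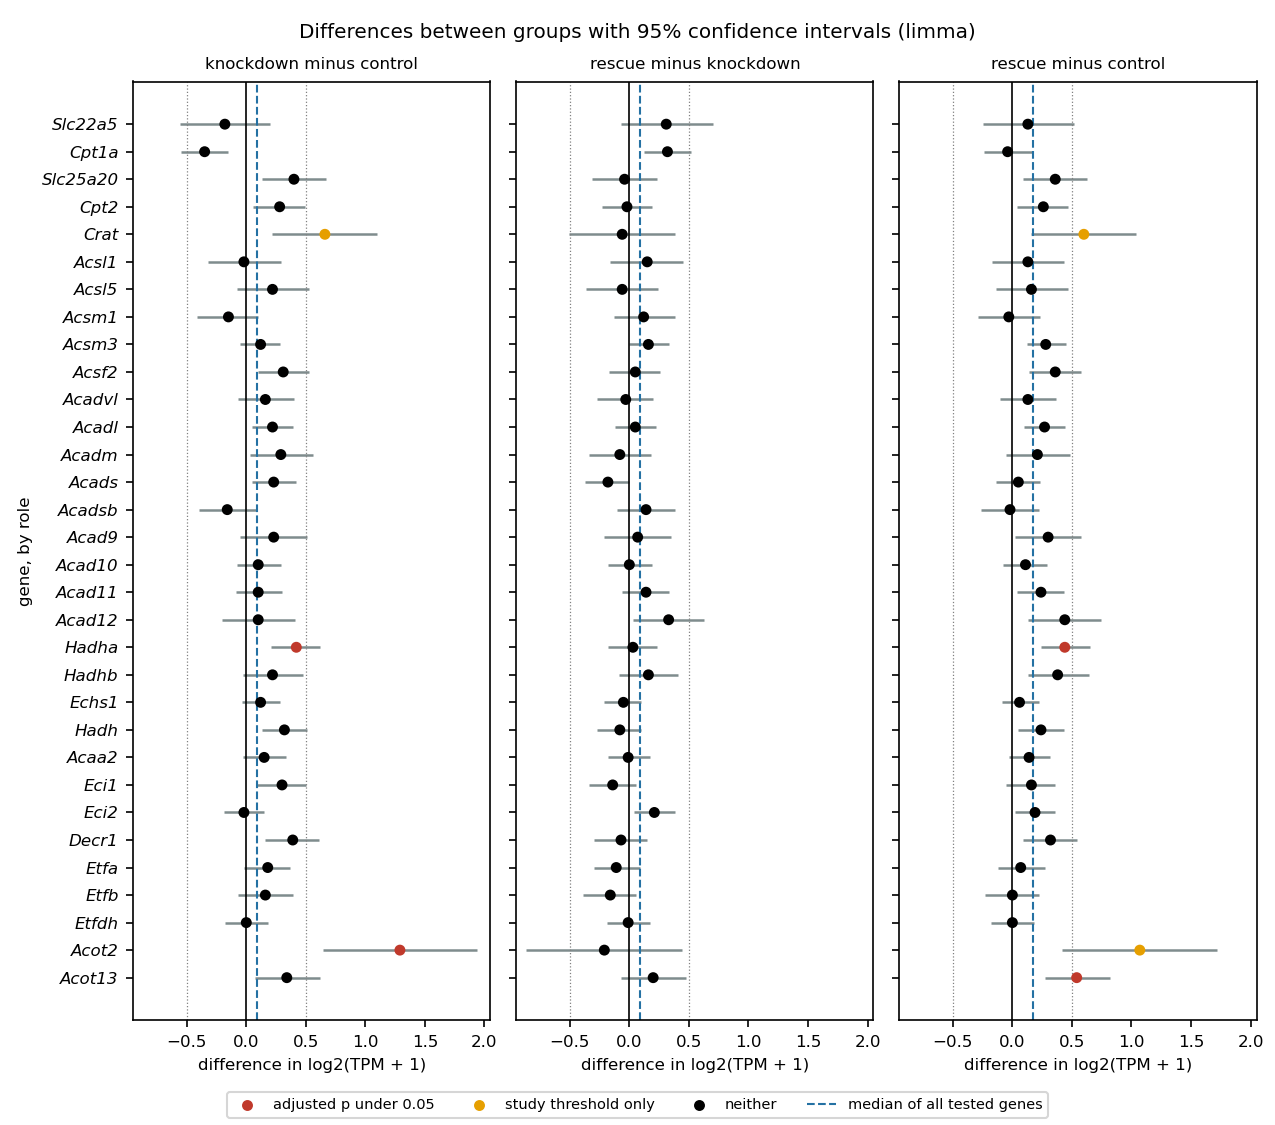
Difference in log2(TPM + 1) between groups (points) with 95% confidence intervals from limma (lines) for the 32 genes, in 3 panels for the 3 comparisons, with dotted lines at ±0.5 and a dashed line at the median of all tested genes. Acot2 and Hadha have an adjusted p under 0.05 in knockdown minus control, Hadha and Acot13 in rescue minus control, and the points of rescue minus knockdown spread around 0.

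Counted together for knockdown against control, 2 of the 32 genes (Crat and Acot2) were higher and 0 lower at the threshold of the study, which 7.65% of all tested genes passed in either direction. An adjusted p under 0.05 was reached by 2 (Hadha and Acot2), against 3.23% of all genes. Both counts are near the share of all genes, and the second was 0 in 8 of the 12 fits that left out 1 mouse. An unadjusted P under 0.05 was reached by 14 (43.8%), 13 higher and Cpt1a lower, against 20.2% of all genes. The groups did not overlap for 6 higher genes (Slc25a20, Acsf2, Acads, Hadha, Decr1 and Acot2), against 6.93% of all genes, and for 1 lower gene (Cpt1a), against 2.06%. The median log2 fold change of the 32 was 0.199, with 26 above 0, whereas the median of all tested genes was 0.087.

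For rescue against knockdown, 0 of 32 genes passed the threshold of the study, against 3% of all tested genes, and 0 had an adjusted p under 0.05 in limma, against 0% of all genes. At an unadjusted P under 0.05 there were 3 (9.38%), Cpt1a, Acad12 and Eci2, all higher in rescue, against 10.7% of all genes. The groups did not overlap for 4 higher genes (Cpt1a, Acad11, Acad12 and Eci2; 5.40% of all genes) and 1 lower gene (Acads; 0.983%). The median of the 32 was -0.001, with 16 above and 16 below 0, against 0.093 for all genes.

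For rescue against control, 3 of 32 genes (Crat, Acot2 and Acot13) were higher and 0 lower at the threshold of the study, against 7.49% of all tested genes, and 2 (Hadha and Acot13) had an adjusted p under 0.05, against 2.15%. The second count was again 0 in 8 of the 12 fits that left out 1 mouse. An unadjusted P under 0.05 was reached by 16 (50%), all higher, against 25.3% of all genes. The groups did not overlap for 11 higher and 0 lower genes, against 21.4% and 0.855% of all genes. The median of the 32 was 0.2, close to the 0.173 of all tested genes, and 17 of the 32 lay above that value. Relative to that shift of all genes, Acot2 was higher by 0.9, Crat by 0.43, Acot13 by 0.37 and Hadha by 0.27 on the log2 scale. The 3 comparisons share their groups, so that their values are not independent of each other.

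The members' median followed the median of all genes in most livers, and scaling therefore moved it. Relative to the control mean, the 32 genes had a median of 0.198 in knockdown mouse 1 and 0.183 in knockdown mouse 3, where all genes had -0.014 and 0.048. In knockdown mice 2 and 4 the members' medians were 0.229 and 0.082, beside 0.236 and 0.103 for all genes. The rescue mice had 0.252, 0.176, 0.139 and 0.231, beside 0.227, 0.188, 0.141 and 0.148. After scaling by the median of ratios, which sets the typical gene equal, the members' median was 0.095 for knockdown against control, -0.096 for rescue against knockdown and -0.001 for rescue against control.

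**Figure D4:**
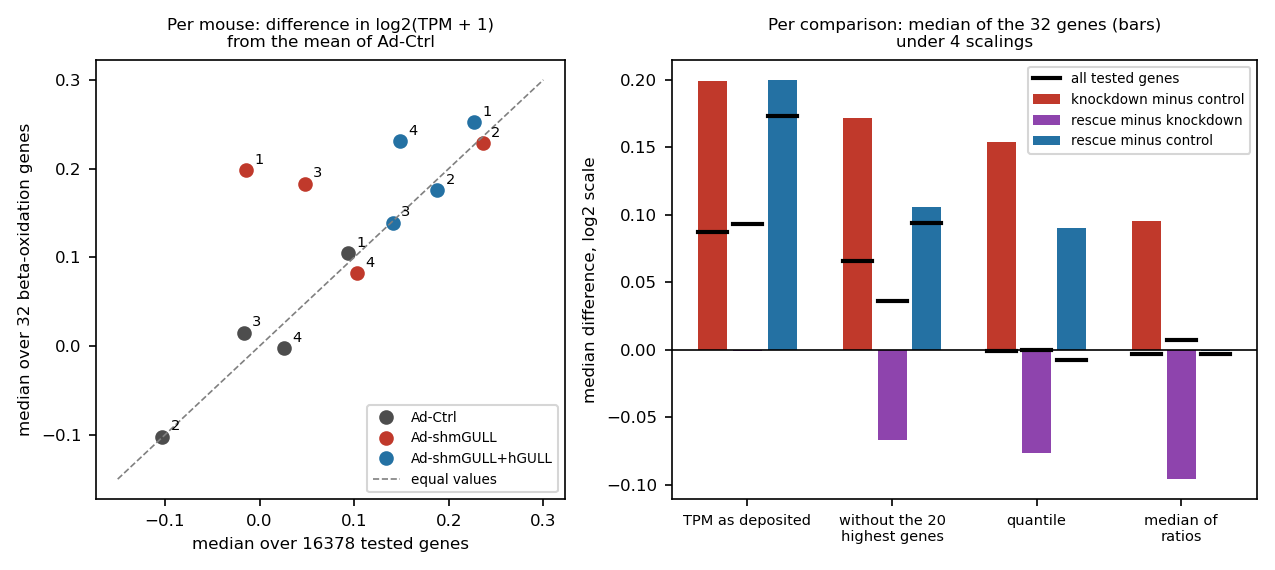
Left, the median difference in log2(TPM + 1) from the Ad-Ctrl mean over the 32 genes (vertical) and over all tested genes (horizontal) in each of the 12 mice, with a dashed line of equal values. Right, the median of the 32 genes (bars) and of all tested genes (black lines) for the 3 comparisons under 4 scalings, where Ad-shmGULL mice 1 and 3 stand off the line on the left and the rescue minus control bar shrinks from 0.2 to -0.001 on the right.

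The pathway's other genes were followed through 4 further lists. Of 35 other mitochondrial oxidation genes, 27 were tested, and 3 were higher and 1 lower at the threshold of the study after knockdown, against 7.65% of all tested genes in either direction. An adjusted p under 0.05 was reached by 2 of them, against 3.23% of all genes, Acsl3, a long-chain synthetase (log2 fold change 0.57, adjusted p = 0.0139), and Acot7, an acyl-CoA thioesterase (0.59, adjusted p = 0.00988), and in rescue against control by Acot7 (0.46, adjusted p = 0.0403), against 2.15% of all genes. Over 22 alternatives, the knockdown calls of Acsl3 and Acot7 held in 21 each, and the rescue call of Acot7 in 8. The list is not confined to mitochondrial enzymes, and where its enzymes act was not measured. It holds the cytosolic Acot1, which rose at the threshold of the study after knockdown and is counted again among the PPARα targets. The muscle form of the entry enzyme, Cpt1b, was under the filter.

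Of 25 regulators of oxidation, 3 were higher and 0 lower at the threshold of the study after knockdown, against 7.65% of all genes, and 2 had an adjusted p under 0.05, against 3.23%. In rescue against control, 2 were higher and 0 lower at the threshold of the study, against 7.49% of all genes. Pparg was among the higher genes at this threshold in both comparisons, without an adjusted p under 0.05. Its call held in 13 of 22 alternatives after knockdown and in 19 for rescue against control. The 2 genes with an adjusted p under 0.05 after knockdown were the acetyl-CoA carboxylases, which make the malonyl-CoA that inhibits Cpt1a. Acaca measured 29.9, 23.7, 21.7 and 23.1 TPM in control, 48.4, 100, 56.1 and 53.0 in knockdown, and 50.2, 60.0, 42.5 and 41.8 in rescue mice, so that all hairpin mice lay above all controls (log2 fold change 1.30, adjusted p = 0.00988 in knockdown, and 0.95, adjusted p = 0.0426, in rescue against control). Acacb, the form at the outer mitochondrial membrane, measured 81.9, 68.0, 68.2 and 56.4 TPM in control, 93.5, 140, 139 and 86.5 in knockdown, and 81.6, 105, 75.7 and 87.8 in rescue mice. Every Acacb value in knockdown exceeded every control (log2 fold change 0.71, adjusted p = 0.0445), and the rescue mice overlapped both groups, with 0.35 against control (adjusted p = 0.221). Over 22 alternatives in limma, the 3 calls of Acaca and Acacb all held at the threshold of the study. An adjusted p under 0.05 was kept in 21 for Acaca and in 6 for Acacb after knockdown (0.0291 to 0.128 for Acacb). It was kept in 8 for Acaca in rescue against control (0.00441 to 0.144, over 0.05 under each of the 3 other scalings). Ppara had log2 differences of -0.11 (95% CI -0.31 to 0.09) after knockdown and 0.23 (unadjusted P = 0.0266, adjusted p = 0.421) for rescue against knockdown, Ppargc1a -0.06 and -0.01, and Crtc2 0.08 and 0.07, and none of them passed a threshold in the 3 comparisons.

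Of 30 PPARα target genes outside the 32, 27 were tested, and 8 were higher and 1 lower at the threshold of the study after knockdown, against 7.65% of all genes in either direction, with 5 at an adjusted p under 0.05, all higher, against 3.23%. The 5 were Cyp4a14, a fatty acid ω-hydroxylase (log2 fold change 1.83, adjusted p = 0.0451), Acot3, a peroxisomal thioesterase (1.67, adjusted p = 0.0194), Acaa1b, a peroxisomal thiolase (1.01, adjusted p = 0.00995), Vnn1, a pantetheinase (0.60, adjusted p = 0.039), and Mgll, the monoacylglycerol lipase (0.50, adjusted p = 0.0445). The list's median was 0.403, against 0.199 for the 32 and 0.087 for all genes. Acaa1b measured 1220, 1080, 1090 and 1020 TPM in control, 3210, 2040, 2080 and 1750 in knockdown, and 1680, 1410, 1370 and 1470 in rescue mice. The 3 groups of Acaa1b did not overlap, and for rescue against knockdown it fell by 0.58 on the log2 scale at the threshold of the study (adjusted p = 0.318), as did Cyp4a14 by 1.11 (adjusted p = 0.421), where 3% of all genes passed in either direction. Over 22 alternatives this call held in 20 for Acaa1b and in 17 for Cyp4a14. Without Ad-shmGULL mouse 1, the highest for Acaa1b, neither passed (log2 fold changes of -0.4 and -0.74), nor with array weights (-0.44 and -0.83). The list's median was -0.082 for rescue against knockdown and 0.360 for rescue against control, where 4 genes were higher at the threshold of the study, against 7.49% of all genes, and 0 had an adjusted p under 0.05 in limma, against 2.15%. After knockdown, the adjusted p stayed under 0.05 in 21 of 22 alternatives for Acaa1b and 18 for Acot3, but in 6 for Vnn1, 5 for Cyp4a14 and 3 for Mgll. Their number was 1 with no filter, array weights or the 2 groups alone, 2 with no trend, and 1 to 7 as each mouse was left out (1 without Ad-Ctrl mouse 4 or Ad-shmGULL mouse 2, 7 without Ad-shmGULL mouse 3), and without Ad-Ctrl mouse 1 the 8 higher genes became 13.

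The 26 genes of mitochondrial content, all tested, had a median log2 difference of 0.208 after knockdown, close to the 0.199 of the β-oxidation genes, and 0.030 and 0.243 in the other comparisons. Cs, citrate synthase, rose after knockdown (0.57, adjusted p = 0.0295, under 0.05 in 15 of 22 alternatives). Under median-of-ratios scaling the list's medians were 0.107, -0.067 and 0.046.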

How the data were processed

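RNA was sequenced from the livers of 12 mice in 3 groups of 4, grouped by the sample labels. The authors trimmed reads with fastp 0.23.2, checked them with FastQC 0.11.8, aligned them with HISAT2 2.2.1.0 to GRCm38.p6, counted them per GENCODE gene (featureCounts, Subread 2.0, in the submitters' processing notes; strand-specific libraries) and deposited TPM. Each sample sums to 1000000 TPM, so the depth per liver, and the precision it gives, is unknown, and no counting interval is given. The labels do not say how the mice were housed or paired, so p-values measure the spread between these samples.

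Here log2(TPM + 1) of the 16378 genes with a mean TPM of at least 1 was fitted in R 4.3.3 with limma 3.58.1 (3 groups in 1 model, empirical Bayes with a mean-variance trend). A gene was counted at the threshold of the study or at a Benjamini-Hochberg adjusted p under 0.05, two-sided. Single genes were also compared with an exact two-sided permutation test over mice. The 32 genes and the other lists were chosen with earlier results of these data known. Values per mouse are given for genes past a threshold, for the genes that the study measured by qRT-PCR and for the most abundant gene of each role. Genes of other lists are named where the adjusted p is under 0.05 (the 5 largest changes), with Ppara, Ppargc1a and Crtc2 named whatever their values. Acot1, Cpt1b, Pparg, Lep, Apoa1, Tat, Stab2, S100a8, S100a9, Marco and the further genes of the 32 given by group were named after their values were seen. Alternatives were a pseudocount of 0.1, no filter or a mean TPM of at least 5, 3 other scalings, the 2 compared groups alone, no trend, array weights, a replicate block, and each mouse left out. The fit was tested on simulated data. Promoters are RefSeq windows on GRCm38.p6, primers come from the study's list, and shared 50-base stretches were counted over the GENCODE VM39 transcripts. Figures were drawn with Python 3.11.15 and matplotlib 3.10.9. No column was left out, and the values of 1 gene of a further list are not reported here.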

Additional observations from a re-analysis of the deposited data

Results flagged for a closer look

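Each of the 32 genes was examined in each group of 4 mice for a value set apart from the other 3 by most of the group's range (96 sets of 4). This marked 5 sets, where chance gives about 4.8. In Ad-shmGULL mouse 1, Slc22a5 measured 48.5 TPM against 32.1 to 34.5 in the other 3 mice, Acadvl 603 TPM against 418 to 442, and Acads 290 TPM against 223 to 233. In Ad-shmGULL+hGULL mouse 3, Crat measured 44.1 TPM against 54.6 to 56.1, and in Ad-shmGULL+hGULL mouse 1, Echs1 measured 76.2 TPM against 73.2 to 73.6. Ad-shmGULL mouse 1 was the highest of its group for 12 of the 32 genes and the lowest for 8.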

How the results depend on the processing

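The deposited TPM give no depth, so the spread between 4 mice sets the precision. At the threshold of the study, 2, 0 and 3 genes (knockdown against control, rescue against knockdown, rescue against control) became 1 with array weights for the first and 1 for the third under median of ratios and 1 under quantile normalization; leaving out 1 mouse gave 1 to 2 (1 without Ad-Ctrl mouse 2), 0 and 2 to 4. Adjusted-p calls were less stable: for knockdown against control, 2 became 1 with array weights, 4 at a mean TPM of at least 5, 3 under each other scaling, and 0 with no filter, no trend or the 2 groups alone, with 0 to 5 as 1 mouse was left out (0 without Ad-Ctrl mouse 2, 3 or 4, Ad-shmGULL mouse 2 or any rescue mouse; 1 without Ad-shmGULL mouse 1 or 4; 5 without Ad-Ctrl mouse 1 or Ad-shmGULL mouse 3). For rescue against control, 2 became 12 with array weights, 7 with the 2 groups alone, and 0 with no filter, no trend, any of the 3 other scalings or the replicate block, with 0 to 5 as 1 mouse was left out (0 without Ad-Ctrl mouse 2, 3 or 4, Ad-shmGULL mouse 4 or any rescue mouse; 5 without Ad-Ctrl mouse 1 or Ad-shmGULL mouse 1 or 2). Whether the replicate numbers pair the mice is not stated. Same-number correlations were -0.244 to 0.154, with 2 of 12 over 0.1. The best match had the same number in 8 of 24, and with 4 mice per group these values cannot exclude pairing. With the block the adjusted-p calls in limma were 2, 0 and 0, the first being Acot2 and Decr1 (adjusted p = 0.046) with Hadha at 0.0506. Outside the 32, the block left 2 of 5 such calls after knockdown among the PPARα targets and 1 of 2 among the regulators. The median over the 32 genes became 0.095, -0.096 and -0.001 under median of ratios and, for the last 2 comparisons, -0.077 and 0.09 under quantile normalization and, for the third, 0.106 without the 20 highest genes; leaving out 1 mouse gave 0.15 to 0.227, -0.018 to 0.038 and 0.166 to 0.229. The cause of these shifts was not tested.

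Signs of small differences turned in 2 comparisons. For rescue against control under median of ratios, Acaa2 was -0.06, Acadvl -0.07 and Etfa -0.13 (Etfa also -0.05 under quantile normalization and -0.02 without the 20 highest genes). For rescue against knockdown, array weights gave Acaa2 0.03, Acadm 0.02, Acadvl 0.05, Acot2 0.08 and Crat 0.02, and Hadha was -0.07 under median of ratios, -0.06 under quantile normalization and -0.04 without the 20 highest genes. As 1 mouse was left out, rescue against knockdown ranged from -0.03 to 0.04 for Acaa2, -0.17 to 0.01 for Acadm, -0.09 to 0.09 for Acadvl, -0.45 to 0.09 for Acot2, -0.01 to 0.22 for Acsm1, -0.16 to 0.06 for Crat and -0.04 to 0.11 for Hadha, and rescue against control from -0.07 to 0.01 for Cpt1a.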

Other observations

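Ratios of genes within a liver do not change when all TPM of that liver are multiplied by a common factor. Quantile normalization uses no such factor and can change them. The ratio of Cpt1a, which makes acylcarnitine at the outer membrane, to Cpt2, which turns it back into acyl-CoA at the inner membrane, was 1.59 ± 0.114 (SD, n = 4; range 1.44 to 1.69) in control mice, 1.04 ± 0.246 (0.831 to 1.37) in knockdown mice and 1.29 ± 0.111 (1.15 to 1.42) in rescue mice. The control mice lay above all 8 hairpin mice, while the knockdown and rescue mice overlapped. The ratio of Hadha to Hadhb, the subunits of the trifunctional protein, was 2.83 ± 0.263 in control (2.58 to 3.06), 3.22 ± 0.098 in knockdown (3.13 to 3.35) and 2.93 ± 0.138 in rescue mice (2.76 to 3.05), with the knockdown mice above all others. The ratio of Etfa to Etfb, the ETF subunits, was 3.24 ± 0.25, 3.28 ± 0.26 and 3.42 ± 0.264, and the groups overlapped. Hadhb shares 62.9% and Etfb 67.3% of its 50-base stretches with other genes, so that the ratios to them are uncertain. All ratios here were chosen after the values were seen and are given without a test.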
